A study of Gallus gallus with 2 samples.

Results

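The E-proteins TCF3, TCF4 and TCF12 and their inhibitors ID1, ID2, ID3 and ID4 were followed in a chicken B-cell line that lacked one or the other form of the histone variant H2A.Z. These 7 genes were found by their symbol in the array's platform annotation, which assigned them 17 of 38439 probe sets, among 13009 named genes. E-proteins are basic helix-loop-helix transcription factors that pair with each other and bind E-box sequences of DNA. ID proteins have the helix-loop-helix part that makes the pair but no basic region for DNA, so an E-protein bound to an ID protein cannot bind its site. In mammals the balance between both families is needed to start the B lineage and is reset when B cells are activated, and TCF3 and ID3 are known to be mutated in human Burkitt lymphoma.

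The cells were DT40, a B-cell line from a chicken bursal lymphoma in which genes are readily targeted. One array held RNA of H2A.Z-1 KO cells, a conditional knockout that depends on an H2A.Z-1 transgene switched off by tetracycline, and 1 array held RNA of H2A.Z-2 KO cells, in which H2A.Z-2 was knocked out constitutively. Both cultures had tetracycline at 2 µg/ml for 72 hours, so the drug is common to both arrays. There was no wild-type array among those analysed here, and every value below sets one knockout against the other. With 1 array per knockout there was no replicate, no test and no p-value, and a difference between genotypes cannot be told apart from a difference between cultures or clones.

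The deposited values are linear probe set intensities, called signals here, scaled by the authors to the same 2% trimmed mean signal of 500.1 on both arrays. A signal under 98.2, the 60th percentile of the probe sets, was treated as not well above background and set to that floor. The log2 ratio is that of H2A.Z-1 KO over H2A.Z-2 KO, and a 2-fold difference is a log2 ratio of 1 or -1. The signal of H2AFZ, the gene of H2A.Z-1, was 614.6 in H2A.Z-1 KO cells and 27642 in H2A.Z-2 KO cells. H2AZ2 gave 20911 in H2A.Z-1 KO cells and was not well above background in H2A.Z-2 KO cells, so both arrays had the order their labels call for. Of 16 B-cell marker symbols listed, where JCHAIN also stands under its older symbol IGJ, 14 had a named probe set. Above the floor were 13, with summed signals of 73499 in H2A.Z-1 KO cells and 46429.6 in H2A.Z-2 KO cells. JCHAIN alone gave 30205 in H2A.Z-1 KO cells and 30166 in H2A.Z-2 KO cells. In H2A.Z-1 KO cells 6 of the 13 were at least 2-fold higher and 0 were at least 2-fold lower, with a median log2 ratio of 0.64. The 6 were CD79B, IKZF3 (5.97-fold), CD72 (4.19-fold), CD74 (3.73-fold), BTK (2.61-fold) and SPI1 (2.08-fold). For comparison, 7977 named genes had a signal above the floor on either array. Of these, 2.87% rose past 2-fold in H2A.Z-1 KO cells and 3.8% fell past it, and their median log2 ratio was -0.06. The marker genes were picked with earlier results of these arrays known, so nothing is read from their share. Of 12 T-cell and NK-cell markers, 11 had a named probe set and 4 were above the floor. The summed signals of the 4 were 10324 in H2A.Z-1 KO cells and 8508 in H2A.Z-2 KO cells, mostly from CD3D, which was within 2-fold. CD247, with 916.0 in H2A.Z-1 KO cells and 301.5 in H2A.Z-2 KO cells, was higher by 3.04-fold in H2A.Z-1 KO cells. CD5 was at least 5.50-fold lower in H2A.Z-1 KO cells, with 34.2, under the floor, in H2A.Z-1 KO cells and 540.3 in H2A.Z-2 KO cells. CD8A was at least 1.60-fold lower in H2A.Z-1 KO cells, and the T-cell genes CD3E, CD4, LCK and ZAP70 were under the floor on both arrays. Of 12 myeloid markers, 9 had a named probe set and 2 were above the floor. Of these, CYBB was higher in H2A.Z-1 KO cells by at least 2.76-fold. For erythroid and thrombocyte markers, 5 of 12 had a named probe set and 2 were above the floor. For fibroblast and epithelial markers, 9 of 12 had a named probe set and 3 were above the floor. The part of these marker shifts in the differences below was not tested.

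The 7 genes did not move as a block. TCF3, ID2 and ID3 were at least 2-fold lower in H2A.Z-1 KO cells, and none was 2-fold higher. TCF12, TCF4 and ID1 were within 2-fold, though the value of TCF4 is a lower bound set by the floor. ID4 was under the floor on both arrays. Among the 7977 measured genes, those with a symbol and a signal above the floor on either array, 3.8% were lower in H2A.Z-1 KO cells by at least 2-fold and 2.87% were higher by that much. The 6 measured members had a median log2 ratio of -0.64, against -0.06 for all measured genes. In such bulk RNA, fewer cells with a transcript and less transcript per cell cannot be told apart. ID3 was counted as measured only through its signal on the H2A.Z-2 KO array, so it could come out only lower in H2A.Z-1 KO cells. It is part of both the count of lower genes and the median. The members were also chosen with earlier results of these arrays known, so nothing is read from their share or median. Of the 17 probe sets, 6 were at least 2-fold lower in H2A.Z-1 KO cells, 8 were within 2-fold and 3 were under the floor on both arrays. Over all 16701 measured probe sets 3.94% were at least 2-fold lower and 3.23% at least 2-fold higher.

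**Figure D1:**
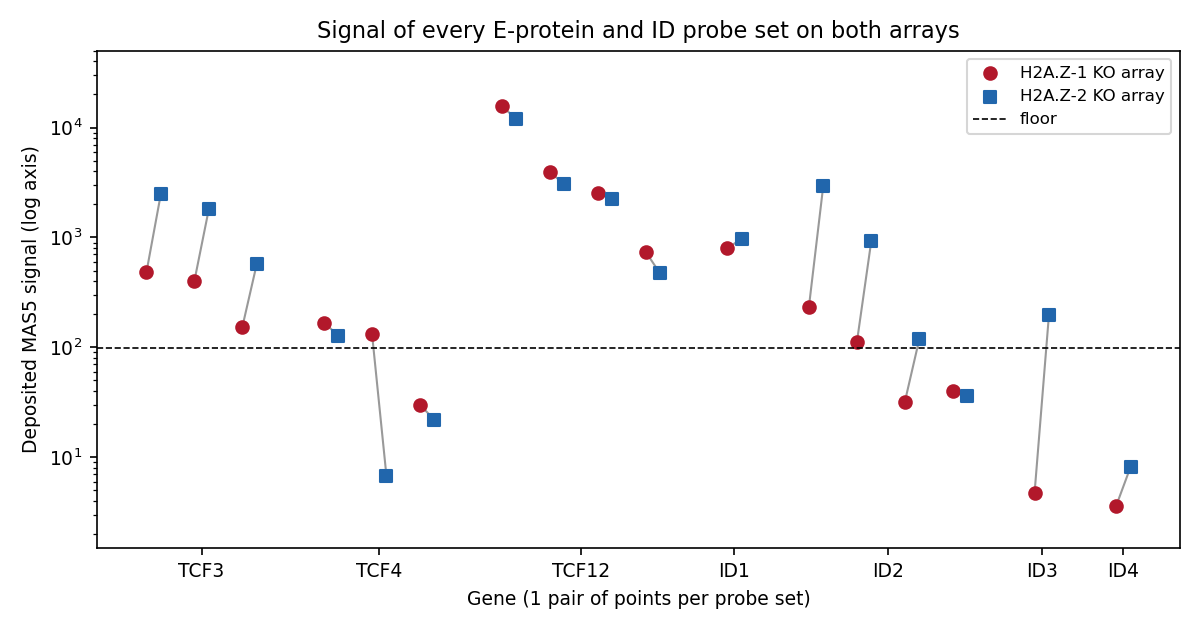
Deposited signal (log axis) of each of the 17 probe sets of the E-protein and ID genes, with a circle for the H2A.Z-1 KO array, a square for the H2A.Z-2 KO array and a line joining the same probe set. The circles of all 3 TCF3 probe sets and of the 2 brightest ID2 probe sets lie well under their squares, whereas the 4 TCF12 circles lie just above theirs. The dashed line is the floor of 98.2.

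TCF3 encodes E2A, the E-protein that in mammals is needed earliest in B-cell development. All 3 of its probe sets were above the floor on both arrays and all were lower in H2A.Z-1 KO cells. The brightest had a signal of 480.1 in H2A.Z-1 KO cells and 2472 in H2A.Z-2 KO cells. The next had 402.7 in H2A.Z-1 KO cells and 1804 in H2A.Z-2 KO cells. The dimmest had 154.4 in H2A.Z-1 KO cells and 575.5 in H2A.Z-2 KO cells.

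The 3 TCF3 probe sets thus gave signals in H2A.Z-1 KO cells of 19.4%, 22.3% and 26.8% of those in H2A.Z-2 KO cells. Their log2 ratios were -2.36, -2.16 and -1.90, with a mean of -2.14 ± 0.23 (SD over 3 probe sets of the same RNA, which are not replicates). As a fold, TCF3 was 4.41-fold lower in H2A.Z-1 KO cells. The SD was under the pooled SD of 0.36 between probe sets of 1 gene over the 3588 genes with at least 2 measured probe sets. It was above the median SD of those genes, 0.20, so the TCF3 probe sets did not agree unusually well. Of 1283 genes with at least 3 measured probe sets, 16 had every one of them at least 2-fold lower in H2A.Z-1 KO cells, TCF3 among them, which is 1.25%. A lower ratio than that of TCF3 was found for 52 of the 7977 measured genes. TCF3 lies on chromosome 28 of the RefSeq assembly GRCg7b; of its 10 nearest protein-coding genes, 5 on each side, 6 were measured, and their log2 ratios ran from -0.95 for REXO1 to 0.03 for UQCR11, with none past 2-fold.

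TCF12 encodes HEB, an E-protein that pairs with E2A, and it went slightly the other way. Its brightest probe set had 15750.4 in H2A.Z-1 KO cells and 12019 in H2A.Z-2 KO cells. The second had 3911 in H2A.Z-1 KO cells and 3091 in H2A.Z-2 KO cells, and the next had 2550.3 in H2A.Z-1 KO cells and 2239 in H2A.Z-2 KO cells. The dimmest had 741.3 in H2A.Z-1 KO cells and 470.8 in H2A.Z-2 KO cells.

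All 4 TCF12 probe sets were higher in H2A.Z-1 KO cells, and none reached 2-fold. The log2 ratios ran from 0.19 to 0.65, with a mean of 0.39 ± 0.19 (SD over 4 probe sets), a 1.31-fold difference. The brightest and the dimmest of these probe sets have a name ending that marks possible matches to several transcripts, and without them the mean was 0.26. A higher ratio than that of TCF12 was found for 13.1% of the measured genes. The log2 ratio of TCF3 minus that of TCF12 was -2.53, a gap larger than the SD between probe sets of either gene. On these 2 arrays TCF3 and TCF12 thus differed in both direction and size. An SD between probe sets does not measure the spread between cultures, here or below. TCF12 lies on chromosome 10, where 5 of 10 neighbours were measured, between -0.68 for MNS1 and 0.23 for NEDD4.

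TCF4 encodes E2-2, the E-protein known for its part in plasmacytoid dendritic cells and in B-cell development of mammals. Its probe sets were close to the floor. The brightest had 167.9 in H2A.Z-1 KO cells and 127.9 in H2A.Z-2 KO cells, a log2 ratio of 0.39. The next had 132.6 in H2A.Z-1 KO cells and 6.78, under the floor, in H2A.Z-2 KO cells, a difference of at least 1.35-fold. The last was under the floor on both arrays, with 29.9 in H2A.Z-1 KO cells and 21.9 in H2A.Z-2 KO cells.

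The value of TCF4, a log2 ratio of at least 0.41 and within 2-fold with this floor, therefore rested on dim signals. It was the only E-protein gene whose side of the threshold depended on the floor. A floor at the 40th percentile gave a log2 ratio of 1.11, and no floor with a pseudocount of 1 gave 1.64, both past 2-fold and higher in H2A.Z-1 KO cells. Under the deposited signals alone, the log2 ratio of the probe set seen in H2A.Z-1 KO cells alone was 4.29, and those of the other 2 were 0.39 and 0.45. TCF4 lies on chromosome Z, where only NARS (-0.23) and FECH (0.05) of 10 neighbours were measured.

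**Figure D2:**
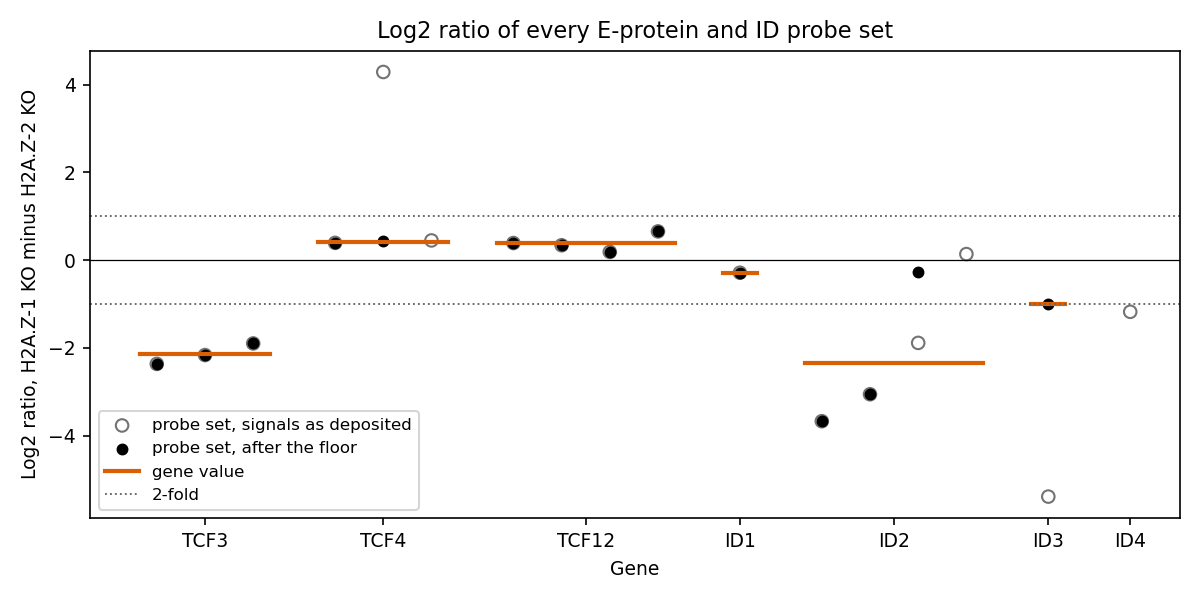
Log2 ratio of H2A.Z-1 KO over H2A.Z-2 KO of each probe set of the 7 genes, with open circles for the deposited signals, filled circles for signals after the floor and a bar for the value of the gene. The probe sets of TCF3 lie together between -2.36 and -1.90, while those of ID2 spread from -3.67 to -0.28 after the floor and the open circle of ID3 lies at -5.39. Dotted lines mark 2-fold.

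Some E-protein names are shared with TCF/LEF factors, the nuclear effectors of Wnt signalling, which are unrelated to E-proteins; TCF4 is also an older name of TCF7L2. The platform table kept them apart by gene identifier. Of the TCF/LEF genes, TCF7L1 was under the floor on both arrays and TCF7 had no named probe set. TCF7L2 was above the floor on 1 of its 5 probe sets, with a signal of 77.3, under the floor, in H2A.Z-1 KO cells and 129.8 in H2A.Z-2 KO cells. LEF1, on 1 of 3 probe sets, had 69.8, under the floor, in H2A.Z-1 KO cells and 184.3 in H2A.Z-2 KO cells, at least 1.88-fold lower in H2A.Z-1 KO cells. Neither passed 2-fold as reported, but without a floor, and with all its probe sets, the log2 ratio of LEF1 was -1.67.

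ID2, which in mammals holds back B-cell commitment and favours innate lymphoid and NK cells, had the lowest ratio of the 6 measured genes as reported. However, TCF3 and ID3 were lower under a floor at the 40th percentile and without a floor. TCF3 was also lower than ID2 with all probe sets averaged, those under the floor at the floor. The brightest ID2 probe set had a signal of 233.2 in H2A.Z-1 KO cells and 2969 in H2A.Z-2 KO cells. The next had 111.9 in H2A.Z-1 KO cells and 931.0 in H2A.Z-2 KO cells. Both were above the floor on both arrays, and both were lower in H2A.Z-1 KO cells, at 7.85% and 12.0% of the signal in H2A.Z-2 KO cells.

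The other ID2 probe sets were dim. One had 32.2, under the floor, in H2A.Z-1 KO cells and 118.8 in H2A.Z-2 KO cells, at least 1.21-fold lower. The dimmest was under the floor on both arrays, with 40.1 in H2A.Z-1 KO cells and 36.5 in H2A.Z-2 KO cells. The log2 ratios of the 3 measured probe sets were -3.67, -3.06 and -0.28, with a mean of -2.33 ± 1.81 (SD over 3 probe sets).

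After the floor, the spread of ID2 was among the widest on these arrays. Only 9 of the 3588 genes with at least 2 measured probe sets had a larger SD. The floor sets the value of the dimmest measured probe set, whose deposited signals had a log2 ratio of -1.89. Part of the SD of ID2 therefore comes from the floor. As the mean of its 3 measured probe sets, ID2 was at least 5.04-fold lower in H2A.Z-1 KO cells, a bound set by the floor. By that value 36 of the 7977 measured genes had a lower ratio. By its brightest probe set it was 12.7-fold lower, a ratio lower than all but 13 of the 16701 measured probe sets. Its log2 ratio stayed past 2-fold under all 10 alternatives that changed the floor, the scaling or the probe sets, between -3.67 and -1.55. As reported, the ratios of ID2 and TCF3 differed by 0.19 on the log2 scale, less than the SD between probe sets of either gene. That gap depended on the processing, so the genes are not called equal. By the brightest probe set of each the ratios were -3.67 for ID2 and -2.36 for TCF3, whereas the alternatives given earlier put TCF3 lower. ID2 lies on chromosome 3, where the 5 measured of 10 neighbours ran from -0.21 for SOX11 to 0.37 for ASAP2.

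ID3, which in mammals is an E-protein target and restrains E2A activity in lymphocytes, was detected on 1 array. Its single probe set had 4.69, under the floor, in H2A.Z-1 KO cells and 196.6 in H2A.Z-2 KO cells. It was therefore at least 2.00-fold lower in H2A.Z-1 KO cells. This value lies on the threshold itself. The log2 ratio became -0.95 with median centring, -0.94 with quantile normalization and -0.79 with the brightness trend removed, all under 2-fold. With lower floors the difference was larger, -2.39 for the 40th percentile and -5.12 without any floor and with a pseudocount of 1, and ID3 was not measured under a floor at the 80th percentile. ID3 lies on chromosome 23, where the 4 measured of 10 neighbours ran from -0.97 for LOC419584 to -0.01 for YTHDF2.

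ID1, the ID gene best known as a direct target of BMP signalling, differed little between the arrays. Its single probe set had 798.4 in H2A.Z-1 KO cells and 973.7 in H2A.Z-2 KO cells. The log2 ratio of -0.29, a 1.22-fold difference, was within the pooled SD of 0.36 between probe sets of 1 gene, and 27.6% of measured genes had a lower ratio. The log2 ratio of ID2 minus that of ID1 was -2.05. ID1 lies on chromosome 20, where HM13 (-0.42), TPX2 (0.21) and BCL2L1 (0.25) were the measured neighbours.

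ID4, which is best known from the nervous system, was under the floor on its single probe set, with 3.61 in H2A.Z-1 KO cells and 8.15 in H2A.Z-2 KO cells. Both signals are too low to be ordered, and no fold is given. ID4 lies on chromosome 2, and its 6 measured neighbours ran from -0.40 for MBOAT1 to 0.47 for NHLRC1. Among the neighbours of all 7 genes, none passed 2-fold in either direction, though between 2 and 6 of 10 were measured at each.

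**Figure D3:**
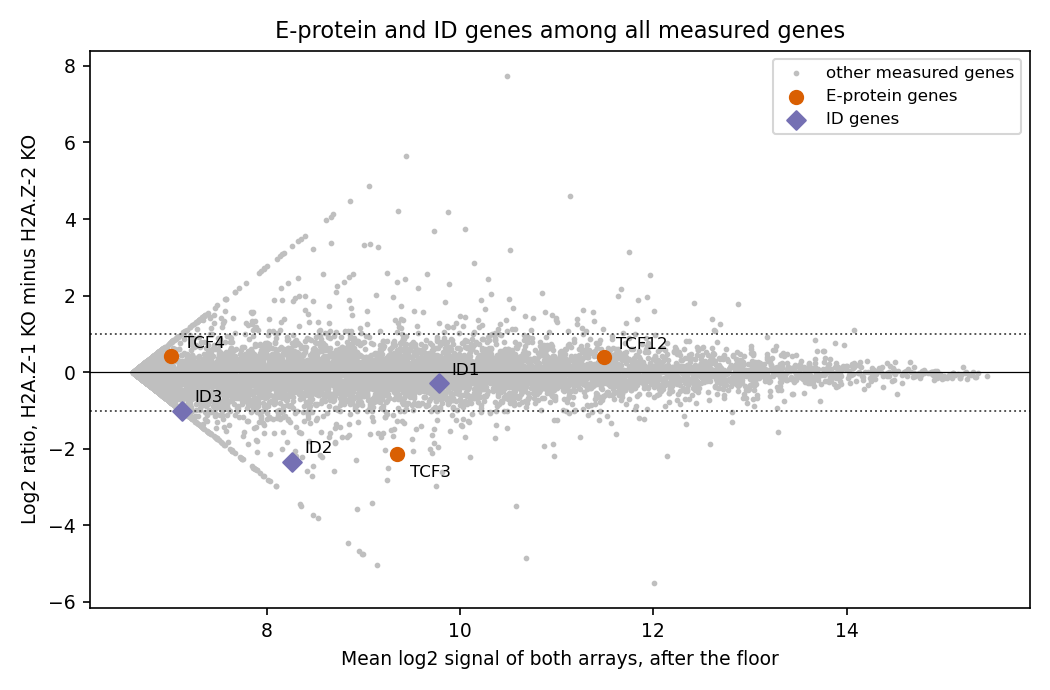
Log2 ratio of H2A.Z-1 KO over H2A.Z-2 KO against mean log2 signal of both arrays for the 7977 measured genes, with circles for E-protein genes and diamonds for ID genes. TCF3 (-2.14) and ID2 (-2.33) lie below nearly all other genes, TCF12 (0.39) and ID1 (-0.29) lie within the main cloud, and ID3 and TCF4 lie at the left edge, where the floor bounds the ratio along the slanted borders. Dotted lines mark 2-fold.

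The directions of the 6 measured genes were the same under every one of the alternatives that measured them (10 for TCF3, TCF12, ID1 and ID2). With a floor, ID3 was measured only through the H2A.Z-2 KO array, so nothing is read from its steady direction. TCF3 ran from -2.36 to -1.27, the smallest difference under a floor at the 80th percentile, which lies above all 3 of its signals in H2A.Z-1 KO cells. TCF12 ran from 0.26 to 0.45 and ID1 from -0.30 to -0.23.

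**Figure D4:**
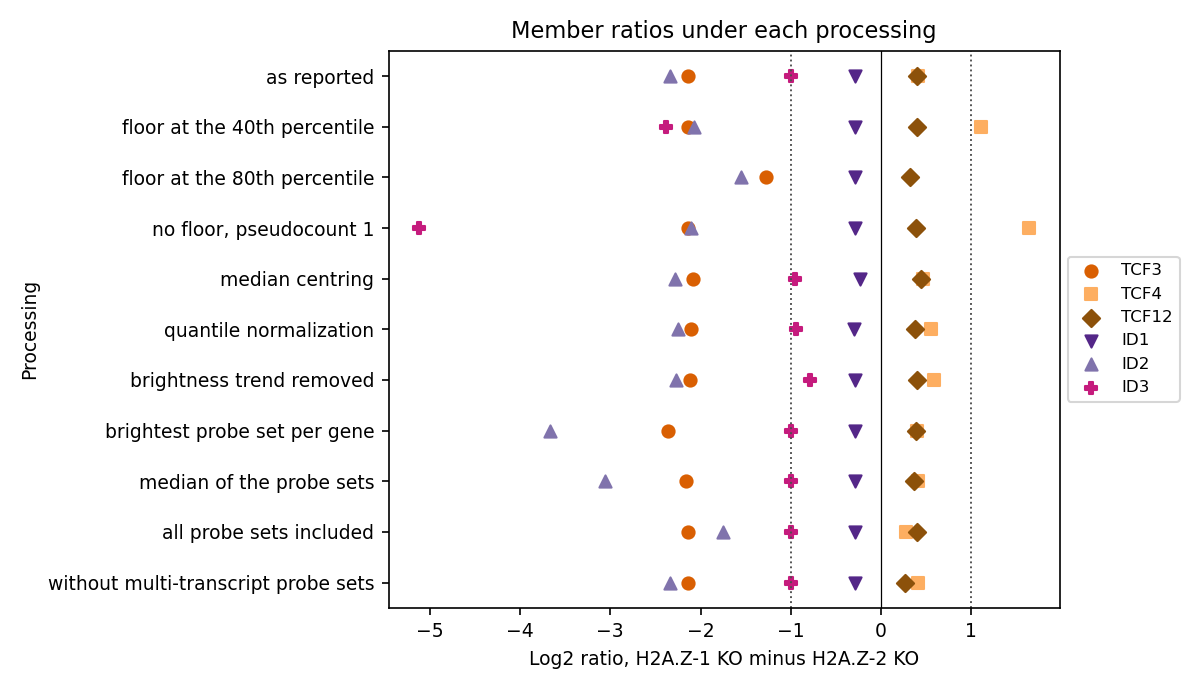
Log2 ratio of H2A.Z-1 KO over H2A.Z-2 KO of the 6 measured genes (points) under the processing as reported and under each of 10 alternatives (rows). TCF3 and ID2 lie left of the 2-fold line in every row, and TCF12 and ID1 lie within 2-fold in every row. TCF4 crosses a 2-fold line with the floor, and ID3 crosses one with the scaling. ID4, which was measured with no floor alone, is not drawn.

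Genes that E-proteins are known to activate in mammalian B cells were described next, from a list written with earlier results of these arrays known, several of its members being among the largest differences. Of 29 genes listed, 20 had a named probe set and 14 were measured. In H2A.Z-1 KO cells 6 of these were higher by at least 2-fold, 1 was lower by at least 2-fold and 7 were within 2-fold. Their median log2 ratio was 0.63, against -0.06 over all measured genes. The list was not independent of these data, so nothing is read from its share. The median was 0.26 once probe sets with possible matches to several transcripts were left out.

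Among these genes, VPREB3, whose product associates with the pre-B cell receptor, had a signal of 4893 in H2A.Z-1 KO cells and 39.1, under the floor, in H2A.Z-2 KO cells, so the H2A.Z-1 KO signal was higher by at least 49.8-fold. EBF1, the factor that acts with E2A to set the B-cell programme in mammals, had 780.5 and 227.7 on its 2 probe sets in H2A.Z-1 KO cells and 8.07 and 21.3, both under the floor, in H2A.Z-2 KO cells. EBF1 was higher in H2A.Z-1 KO cells by at least 4.29-fold, but a floor at the 80th percentile left a log2 ratio of 0.46, within 2-fold. CD79B, a signalling chain of the B-cell receptor, had 10163 in H2A.Z-1 KO cells and 1160 in H2A.Z-2 KO cells. Under a floor at the 80th percentile the log2 ratio of VPREB3 was 3.11, against 5.64 as reported. The signals of these 3 genes were higher on the array where those of TCF3, ID2 and ID3 were lower, and a link was not tested. FOXO1, RASGRP3, BTK, POU2AF1 and CXCR4 of the list were also higher in H2A.Z-1 KO cells. CCND3, PAX5, IGLL1, IRF4, IRF8 and CCND2 were lower in H2A.Z-1 KO cells, with log2 ratios from -1.23 for CCND3 to -0.11 for CCND2. Of these only CCND3 was past 2-fold. The PAX5 value rested on 1 dim probe set. Its others were under the floor on both arrays and did not all go the same way. The brightest of those had 76.0 in H2A.Z-1 KO cells and 5.48 in H2A.Z-2 KO cells. VPREB3, EBF1 and RASGRP3 below were counted as measured only through the H2A.Z-1 KO array.

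The forkhead factor gene FOXO1, which in mammals works with E2A and EBF1, had 1633 in H2A.Z-1 KO cells and 162.6 in H2A.Z-2 KO cells, a 10.0-fold difference. Under a floor at the 80th percentile, which lies above its H2A.Z-2 KO signal, the log2 ratio of FOXO1 was 1.52, against 3.33 as reported. RASGRP3, a Ras exchange factor of B cells, was higher in H2A.Z-1 KO cells by at least 17.6-fold on 2 probe sets, with 1344 and 2226 in H2A.Z-1 KO cells and 13.9 and 30.1 in H2A.Z-2 KO cells. The log2 ratio of RASGRP3 was 1.61 under that floor, against 4.14 as reported, so FOXO1, RASGRP3 and VPREB3 stayed past 2-fold at smaller values. The kinase gene BTK had 5885 in H2A.Z-1 KO cells and 2253 in H2A.Z-2 KO cells. BTK, CD79B and CCND3 each rest on 1 probe set of the kind with possible matches to several transcripts. In the other direction, the cyclin gene CCND3 had 2500.1 in H2A.Z-1 KO cells and 5846 in H2A.Z-2 KO cells. The log2 ratio of CCND3 was -1.23, and between -0.62 and -0.61, within 2-fold, when its second, dim probe set was included (at the floor, under a floor at the 40th percentile or with no floor). The B-lineage factor gene PAX5, with 127.1 in H2A.Z-1 KO cells and 203.2 in H2A.Z-2 KO cells on 1 of its 4 probe sets, and IRF4, with 4966 in H2A.Z-1 KO cells and 5912 in H2A.Z-2 KO cells, were within 2-fold; both were named after their values were seen. RAG1, RAG2 and DNTT, genes of receptor gene rearrangement, were under the floor on both arrays.

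Of 20 listed partners and corepressors of E-proteins, 19 had a named probe set and 11 were measured. Of the 11, 10 were within 2-fold and 1 was 2-fold lower. That 1 gene is 9.09% of the measured genes of the list, against a background of 3.8% lower and 2.87% higher over all measured genes. The share past 2-fold was 7.14% in the regulator list below, also 1 gene, and 0% in the turnover list. Such counts are too small to be called like or unlike the background. The median of the partner list was a log2 ratio of 0.10, a value that turned negative under a floor at the 40th percentile (-0.09) and without any floor (-0.12). The member past 2-fold was LMO4, a LIM-only adaptor, with 2356 and 759.1 on its 2 probe sets in H2A.Z-1 KO cells and 5146 and 1923 in H2A.Z-2 KO cells, 2.35-fold lower in H2A.Z-1 KO cells. TAL1, TAL2, LMO1 and LMO2, which join E-proteins in blood stem cells and T-cell leukaemia, were under the floor on both arrays.

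None of the measured regulators of ID genes differed as much as ID2. Of 33 listed genes of BMP, TGF-beta and EGR signalling, 27 had a named probe set, 14 were measured and 13 were within 2-fold. The median log2 ratio was -0.28. TGFB2, a ligand of the TGF-beta family, was 2.68-fold lower in H2A.Z-1 KO cells, with 115.3 in H2A.Z-1 KO cells and 308.9 in H2A.Z-2 KO cells. The ligand genes BMP2, BMP4, BMP6 and BMP7 and the receptor genes BMPR1A, BMPR1B and BMPR2 were under the floor on both arrays. Chosen after their values were seen, SMAD1, a mediator of BMP signals, stood at -0.65 and SMAD5 at -0.01. Of 14 genes for the turnover of E-proteins and ID proteins, 12 had a named probe set and all of those were measured. None passed 2-fold and the median was 0.04. Among them, and also chosen after its value was seen, USP1, a protease known to stabilise ID proteins, stood at 0.56.

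Of 57 other basic helix-loop-helix factor genes listed, 41 had a named probe set, 12 were measured and 10 were within 2-fold. The median of the 12 was -0.12. In H2A.Z-1 KO cells 1 was at least 2-fold lower and 1 at least 2-fold higher, together 16.7% of the 12. Over all measured genes 3.8% were lower and 2.87% higher by that much, and 1 gene per direction is too few to compare. The list is not the whole class, as it held no genes of the PAS family or of the MYC and MAX network. Of the PAS family, and chosen after their values were seen, AHR1A had a log2 ratio of -3.48 and ARNT had -0.22. BHLHE41, a repressor that in mouse B cells is tied to the B-1a subset, was 4.58-fold lower in H2A.Z-1 KO cells, with 2117 in H2A.Z-1 KO cells and 9688 in H2A.Z-2 KO cells on 1 probe set. Its log2 ratio of -2.19 was close to those of TCF3 and ID2 and ran from -2.24 to -2.14 over the alternatives. MITF, the melanocyte factor that also acts in B cells of mice, was higher in H2A.Z-1 KO cells by at least 2.61-fold over 3 probe sets. Their log2 ratios lay between 0.71 and 1.76, and 1 of the 3 was under the floor in H2A.Z-2 KO cells. MITF stayed past 2-fold under 6 of 10 alternatives. Its log2 ratio was within 2-fold under the other 4, at 0.76 under a floor at the 80th percentile, 0.85 under one at the 40th, 0.88 without a floor and 0.83 with all probe sets averaged.

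**Figure D5:**
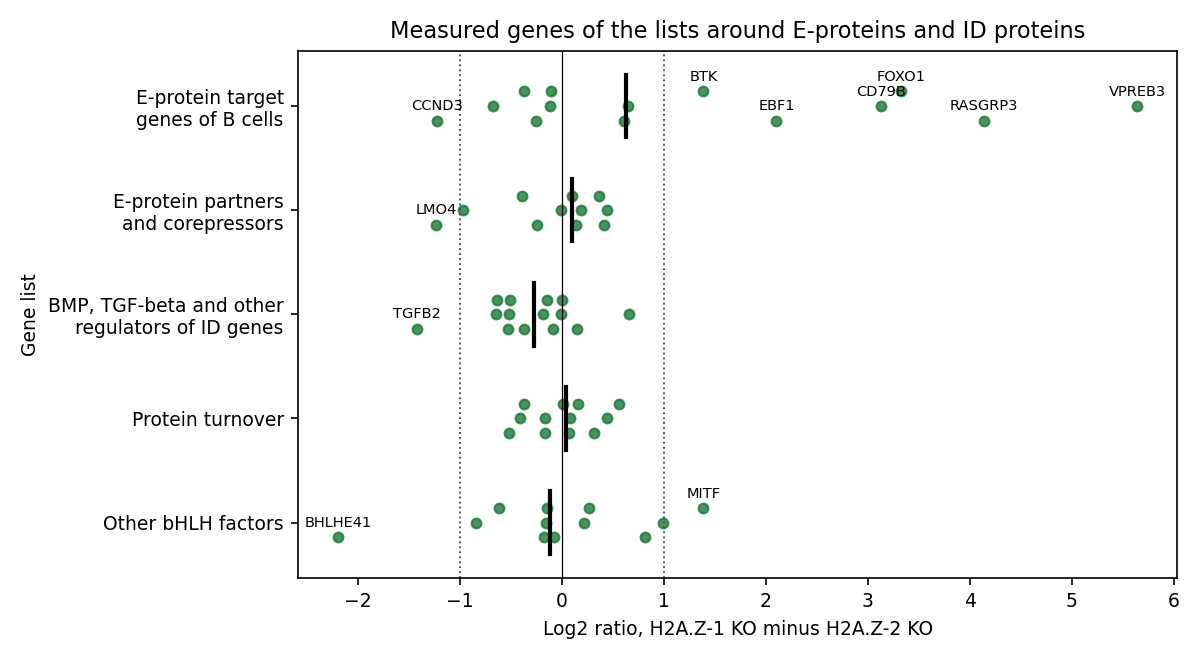
Log2 ratio of H2A.Z-1 KO over H2A.Z-2 KO of the measured genes (points) of 5 gene lists around E-proteins and ID proteins, with the list median as a black bar and genes past 2-fold named. The 14 measured E-protein target genes run from CCND3 at -1.23 to VPREB3 at 5.64, a bound set by the floor. That list was written with results of these arrays known, so its spread is not compared with the others. All 12 turnover genes lie within 2-fold.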

How the data were processed

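Biotin-labelled RNA of one culture per knockout was hybridised to a chicken array of Affymetrix, per the labels' protocols. The deposited intensity values are linear signals made by the authors with MAS5, per the submitters' processing notes; the version, scaling target and detection calls were not given in the sources used here. Equal trimmed means show that each array was scaled, so a change of the total RNA in a cell would not show.

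The 96 control probe sets were left out. Signals were set to a floor at the 60th percentile (98.2) and log2 ratios were taken. A gene's value is the mean over those of its probe sets that exceeded the floor on 1 array or both. A single gene symbol was given for 27168 of 38439 probe sets, several for 177 and none for 11094. For 26853 probe sets the symbol was taken by gene identifier from RefSeq (GRCg7b), the source of chromosomes and neighbours as well. Coordinates are left out because the array's own build was not given in the sources used here. Python 3.11.15, pandas 2.3.3 and statsmodels 0.14.6 were used, and the steps were tested on simulated data. Changes were planted there only in probe sets with a mean signal well above the floor. That test therefore did not cover dim probe sets, such as that of ID3, or the spread between cultures. With 1 array per group no test was made, and the precision is limited by the number of arrays. No sequences were used here.

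The members, the gene lists and the markers were chosen with earlier results of these arrays known. Genes named are all members, up to 4 genes per direction past 2-fold in each list, the TCF/LEF genes, VPREB3, EBF1, CD79B and RAG2, and the knocked-out genes; 1 item is not reported here. Other genes were named as examples after their values were seen. Alternatives were a lower floor (40th percentile), a higher one (80th), none with a pseudocount of 1, centring on the median, normalization by quantiles, a brightness trend taken out (lowess, fraction 0.3, 3 iterations), 3 other ways to value a gene, exclusion of probe sets that can match several transcripts, and thresholds of 1.5-fold and 3-fold.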

Additional observations from a re-analysis of the deposited data

How the results depend on the processing

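No paired analysis was possible because each knockout had 1 array. The count of members at least 2-fold lower in H2A.Z-1 KO cells was 3 as reported, and 2 or 3 under every alternative processing. It was 2 with median centring, quantile normalization and the brightness trend removed, where ID3 came under the threshold, under a floor at the 80th percentile, where ID3 was not measured. At the 3-fold threshold, 2 members (TCF3 and ID2) were at least 3-fold lower. The count of members at least 2-fold higher, 0 as reported, was 1 under a floor at the 40th percentile and 1 without a floor, in both cases TCF4. The median log2 ratio of the measured members, -0.64, moved to -1.18 under a floor at the 40th percentile. The number of member probe sets past 2-fold, 6 as reported, was 3 under a floor at the 80th percentile. None of the measured member genes changed direction, which for ID3 was preset wherever a floor was used. The median of all measured genes was -0.06 as reported, -0.16 with no floor and -0.11 under a floor at the 40th percentile. Over all genes, the share at least 2-fold lower was 15.1% with no floor, against 3.8% as reported, and the share at least 1.5-fold lower was 11.6%. Signals near the floor limit ID3, ID4 and TCF4, and no alternative replaces a second culture.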
